A study of Mus musculus with 12 samples.

Results

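Smooth muscle contractile genes are the genes whose products build, anchor and switch the contractile apparatus of the gut's muscle layers. A list of 33 of them was followed through bulk RNA-seq of full-thickness mouse colon, muscle layers included: 33 of 33 were found by symbol among the 35688 genes of the deposited table, and 31 passed the filter on low values, of 13293 genes that did. Myocd and Chrm3 were too low to be tested and are given as values. The colons came from 2-week-old Il10-/- Tnfr1-/- mice (6 libraries, replicates 1 to 6) and 2-week-old Il10-/- mice (5 libraries, replicates 1, 2, 3, 5 and 6). Both genotypes lack Il10, which encodes an anti-inflammatory cytokine whose loss leads to colitis. The first genotype also lacks Tnfr1, the gene Tnfrsf1a, which encodes a receptor for tumour necrosis factor. The study asked what loss of this receptor changes in Il10-deficient colitis early in life. No wild-type colon was analysed here, and strain, sex, litter and housing are not given in the sources used here, so every comparison is between these genotypes alone. Each library is taken as 1 mouse, as the series describes. Values are abundances per transcript, divided by transcript length and scaled by the authors, and summed here to genes.

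Visceral smooth muscle shortens when calcium entry activates myosin light chain kinase, which phosphorylates the myosin regulatory light chain and lets myosin pull on actin filaments. Actin filaments are held at dense bodies and at membrane plaques, tied together by desmin filaments, and myosin phosphatase reverses the phosphorylation. Many of these genes are driven by serum response factor, which binds a short A/T-rich element called the CArG box, together with the coactivator myocardin. The colon wall carries an inner circular and an outer longitudinal muscle layer, so the muscle share of a whole-colon extract bears on every value below. In such bulk samples, fewer muscle cells and less RNA per muscle cell cannot be told apart.

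The promoters of 3 members are shown because they hold sequence matches to the CArG box: Acta2 and Myl9 varied together with the rest of the list across libraries, and Ldb3 did not. Each run covers 250 bases before and 50 bases after a RefSeq start on GRCm38.p6, 5′ to 3′ on the gene's strand, with CArG boxes (CC, 6 middle bases, GG) in capitals.
Acta2, chr19:34255324-34255623, minus strand: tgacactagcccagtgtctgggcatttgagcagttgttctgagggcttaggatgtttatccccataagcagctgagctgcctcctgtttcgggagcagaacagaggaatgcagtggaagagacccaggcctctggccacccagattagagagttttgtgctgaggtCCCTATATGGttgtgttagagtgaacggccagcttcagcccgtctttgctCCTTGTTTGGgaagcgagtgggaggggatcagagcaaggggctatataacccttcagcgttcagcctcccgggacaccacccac
Myl9, chr2:156775214-156775513, plus strand: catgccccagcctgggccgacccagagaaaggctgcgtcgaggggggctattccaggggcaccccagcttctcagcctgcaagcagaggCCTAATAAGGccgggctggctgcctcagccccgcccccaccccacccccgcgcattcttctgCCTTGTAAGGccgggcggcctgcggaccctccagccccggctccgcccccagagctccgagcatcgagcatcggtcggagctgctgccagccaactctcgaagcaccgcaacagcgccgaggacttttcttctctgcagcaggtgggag
Ldb3, chr14:34588632-34588931, minus strand: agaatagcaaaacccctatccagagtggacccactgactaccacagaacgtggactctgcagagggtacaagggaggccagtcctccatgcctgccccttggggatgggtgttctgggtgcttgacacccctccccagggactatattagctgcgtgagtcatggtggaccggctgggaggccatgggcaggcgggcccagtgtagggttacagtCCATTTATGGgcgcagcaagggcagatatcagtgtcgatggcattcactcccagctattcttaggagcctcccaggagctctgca
The Acta2 boxes begin at -84 and -34 relative to the start, and each has 1 G or C among its 6 middle bases. The Myl9 promoter has a box at -161 whose middle is all A or T and a box with 1 G at -99. The Ldb3 box at -35 is again all A or T in the middle. RefSeq promoters were found for 28 of the 33 members, 36 promoters of 300 bases in all. No promoter was used for Actg2, Itga7, Myh11, Myocd and Tagln. A CArG box with an all-A/T middle stood in a promoter of 2 of the 28 members (7.14%), against 1.81% of the 27025 genes with a RefSeq promoter of the same length. When 1 G or C was allowed in the middle, which includes the first kind, 8 members (28.6%) matched, against 11.3% of all genes. Some promoters of 1 gene overlap: the matches in both Ldb3 windows are 1 and the same box, and so are those in both Jph2 windows, so the members hold 2 distinct boxes of the first kind and 11 in all. Counted by promoter with these repeats, 3 of 36 (8.33%) and 11 of 36 (30.6%) matched, against 1.63% and 9.98% of 32851 promoters. The element reads as the same kind of box on both strands, and both strands were counted once. Besides those shown, the members with a match were Cacna1c, Hspb6, Jph2, Pdlim3 and Synm. A match is a description of these letters and not a measured binding site.

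The libraries differed in ways that touch all of the values below. Abundance summed to 804109 in the smallest and 1378971 in the largest library, and the share of transcripts listed at 0 ran from 41.7% to 55.1%. The Il10-/- Tnfr1-/- libraries 3 and 4 had the smallest sums and the smallest shares of transcripts at 0, and the Il10-/- libraries 5 and 6 had the largest of both. Sample names begin with a digit, and the sources used here do not give its meaning. Names starting with 1 cover 2 Il10-/- Tnfr1-/- libraries (1 and 2) and 3 Il10-/- libraries (1, 2 and 3). Names starting with 2 (libraries 3 and 4) or with 3 (libraries 5 and 6) are all Il10-/- Tnfr1-/-, and names starting with 4 (libraries 5 and 6) are all Il10-/-. Outside names starting with 1, the digit and the genotype cannot be told apart. Tnfrsf1a had 12.0 to 17.0 in Il10-/- Tnfr1-/- libraries and 30.6 to 78.1 in Il10-/- libraries, with no overlap, in the direction of the labels. Transcripts of Il10 were present in both genotypes, at 3.27 to 7.23 in Il10-/- Tnfr1-/- and 9.06 to 22.9 in Il10-/- colons.

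The 33 members together made up 0.539%, 0.202%, 1.73%, 1.65%, 0.466% and 0.199% of the abundance in the 6 Il10-/- Tnfr1-/- libraries. In the 5 Il10-/- libraries they made up 0.223%, 0.225%, 0.742%, 0.0710% and 0.0572%. Il10-/- Tnfr1-/- libraries 3 and 4 were the highest and Il10-/- libraries 5 and 6 the lowest, while Il10-/- library 3 was above 4 of the 6 Il10-/- Tnfr1-/- libraries. The pattern held gene by gene: 31 of the 33 members had their highest value in a library whose name starts with 2, and 28 had their lowest in one whose name starts with 4. Highest and lowest library differed by 4.31-fold to 164-fold, with a median of 30.6-fold over the 33 members.

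**Figure D1:**
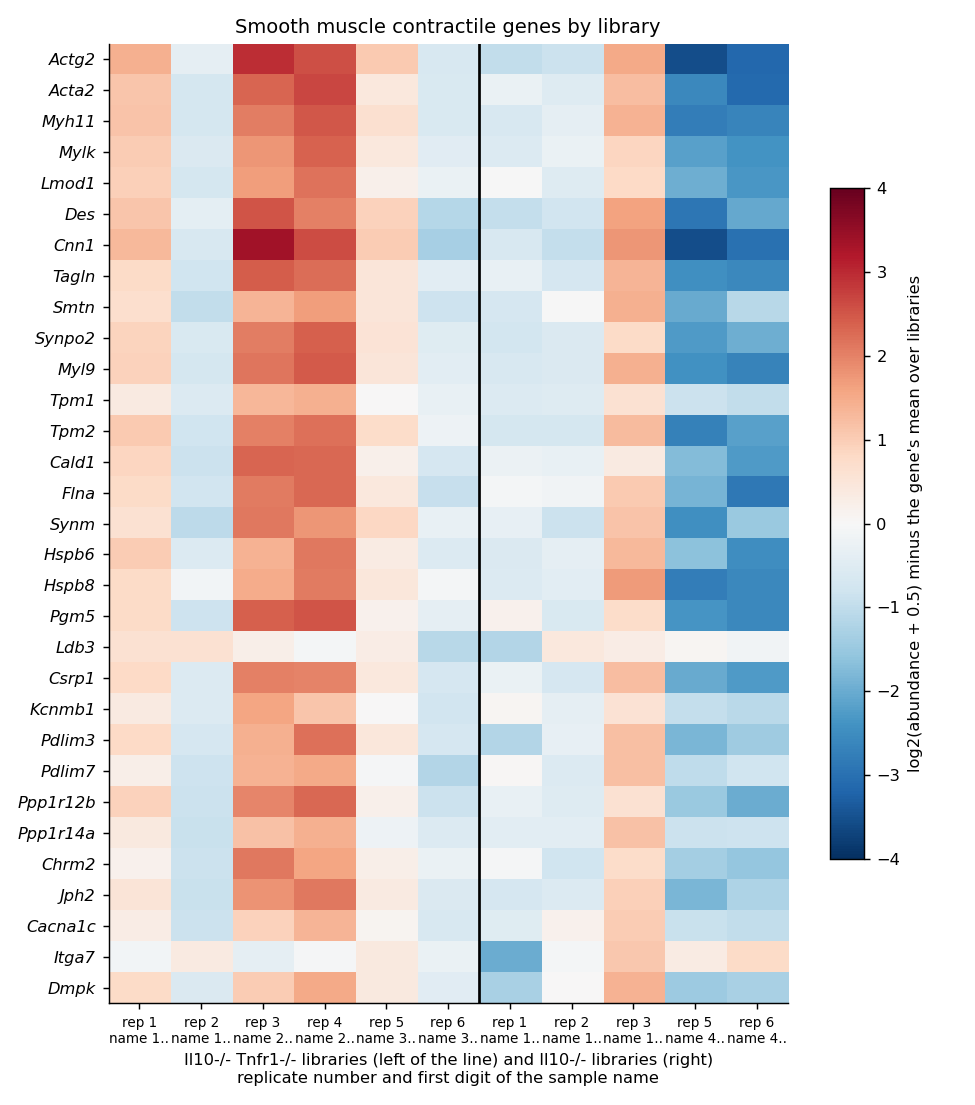
Heat map of the 31 tested members (rows) in the 6 Il10-/- Tnfr1-/- libraries (left of the line) and the 5 Il10-/- libraries (right). Colour is log2(abundance + 0.5) minus the gene's mean over the 11 libraries. Most rows share 1 pattern, high in Il10-/- Tnfr1-/- libraries 3 and 4 and in Il10-/- library 3, and low in Il10-/- libraries 5 and 6; Ldb3 and Itga7 do not.

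The filament proteins themselves come first. Actg2 encodes enteric smooth muscle gamma actin (ENSMUSG00000059430, chr6:83512905-83536265, minus strand, mm10). Its abundance was 903, 263, 2623, 2005, 703 and 213 in the 6 Il10-/- Tnfr1-/- libraries, against 169.96, 186, 964, 28.6 and 37.4 in the 5 Il10-/- libraries. Libraries 3 and 4 of the Il10-/- Tnfr1-/- mice were the highest and libraries 5 and 6 of the Il10-/- mice the lowest, and the other Il10-/- Tnfr1-/- values, from 213 to 903, lay inside the range of the Il10-/- values. The mean difference on the log2(abundance + 0.5) scale was 2.57 ± 0.92 (SE), with an unadjusted p of 0.0156 and a Benjamini-Hochberg adjusted p of 0.535 in limma, the largest difference among the members. Without the libraries whose names start with 2 or 4 it was 0.47.

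Acta2 encodes alpha smooth muscle actin, made by vascular and visceral muscle and by myofibroblasts (ENSMUSG00000035783, chr19:34241090-34255590, minus strand). It had 598, 171, 1399, 1753, 371 and 183 in Il10-/- Tnfr1-/- libraries, against 233, 194, 648, 46.3 and 31.9 in Il10-/- libraries. The order of libraries was close to that of Actg2 and the genotypes overlapped, with a log2 difference of 1.91 ± 0.83 (SE). Actg2 and Acta2 are close in sequence, and how the authors' transcript assignment split their reads is uncertain. Myh11 encodes smooth muscle myosin heavy chain, the motor itself (ENSMUSG00000018830, chr16:14194535-14291372, minus strand). Its abundance was 169.96, 47.03, 322, 434, 119 and 50.2 in Il10-/- Tnfr1-/- libraries, against 49.3, 60.2, 201, 10.8 and 12.05 in Il10-/- libraries. Again the 2 lowest values were those of Il10-/- libraries 5 and 6, and the remaining libraries overlapped. Its log2 difference was 1.83 ± 0.80 (SE).

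Myl9 encodes the regulatory light chain that kinase and phosphatase act on. It averaged 656 ± 550.2 (SD, n = 6) in Il10-/- Tnfr1-/- and 234 ± 282 (SD, n = 5) in Il10-/- colons, over ranges of 167 to 1487 and 41.8 to 723. Mylk encodes the kinase that phosphorylates this light chain. It had 72.6, 24.03, 124, 185, 47.7 and 26.3 in Il10-/- Tnfr1-/- libraries, against 24.4, 29.7, 65.2, 7.51 and 6.44 in Il10-/- libraries, a log2 difference of 1.66 ± 0.66 (SE). For motor, light chain and kinase alike the Il10-/- library 3 stood among the Il10-/- Tnfr1-/- libraries.

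**Figure D2:**
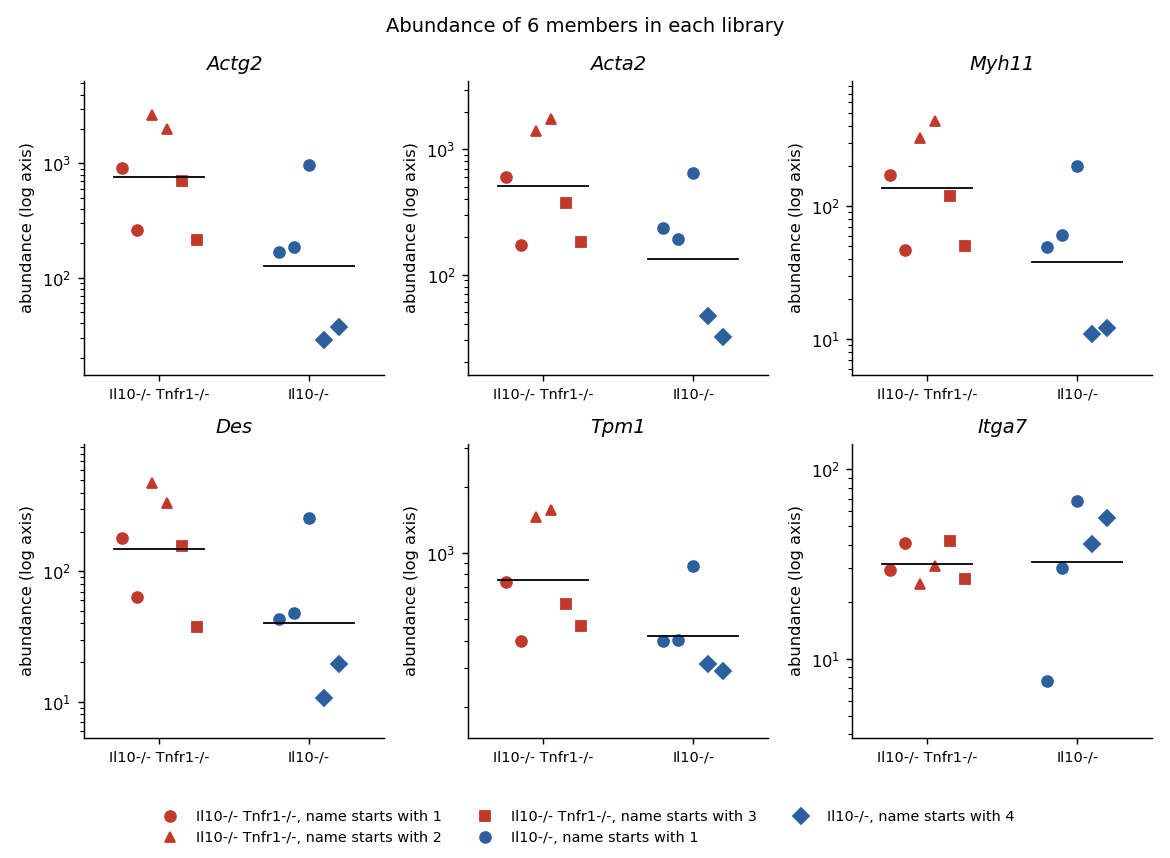
Abundance (log axes) of Actg2, Acta2, Myh11, Des, Tpm1 and Itga7 in each library, with Il10-/- Tnfr1-/- left of Il10-/-; symbols mark the first digit of the sample name and lines the geometric mean of each genotype. In the first 5 genes the triangles (names starting with 2) are the top points and the diamonds (names starting with 4) the bottom ones, and libraries with other names overlap between genotypes.

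Thin-filament regulators followed the same order. Tpm1 and Tpm2 encode tropomyosins, which lie along actin. Tpm1 averaged 867 ± 510.2 in Il10-/- Tnfr1-/- and 455 ± 237 in Il10-/- colons (SD, n = 6 and 5), and its highest library was only 5.39-fold above its lowest. Tpm2 averaged 843 ± 612 in Il10-/- Tnfr1-/- and 293 ± 336 in Il10-/- colons and spanned 30.6-fold. Cald1, the actin- and myosin-binding caldesmon, averaged 66.3 ± 59.2 in Il10-/- Tnfr1-/- and 19.1 ± 12.5 in Il10-/- colons. Tpm1 and Cald1 are also made by non-muscle cells.

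Cnn1 encodes calponin 1, which inhibits the myosin ATPase on actin. Its abundance was 289, 75.7, 1217, 724, 239 and 46.1 in Il10-/- Tnfr1-/- libraries, against 75.1, 59.8, 402, 9.64 and 14.5 in Il10-/- libraries. After Actg2 it had the largest difference in means among the members, at 2.33 ± 1.02 (log2, SE), and without names starting with 2 or 4 the difference was 0.03. Tagln encodes transgelin, an actin cross-linker. It had 529, 179, 1666, 1489.8, 439 and 232 in Il10-/- Tnfr1-/- libraries, against 255, 196, 805, 56.6 and 52.7 in Il10-/- libraries. Its log2 difference was 1.70 ± 0.78 (SE) over all 11 libraries and -0.13 without names starting with 2 or 4.

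Smtn encodes smoothelin, a filament protein of contractile smooth muscle. It had 82.04, 25.8, 133, 164, 71.7 and 28.4 in Il10-/- Tnfr1-/- libraries, against 31.7, 50.9, 137, 12.3 and 23.6 in Il10-/- libraries, so Il10-/- library 3 was higher than Il10-/- Tnfr1-/- library 3. Lmod1 encodes leiomodin 1, which nucleates actin filaments. It had 9.58, 2.69, 15.9, 23.1, 5.52 and 3.84 in Il10-/- Tnfr1-/- libraries, against 4.61, 3.13, 8.47, 0.835 and 0.534 in Il10-/- libraries. The log2 differences were 0.88 ± 0.62 for Smtn and 1.48 ± 0.64 for Lmod1 (SE).

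Among intermediate filaments, Des encodes desmin, the muscle-type subunit. Its abundance was 180.2, 63.04, 472, 336, 157 and 37.6 in Il10-/- Tnfr1-/- libraries, against 42.8, 48.1, 255, 10.6 and 19.4 in Il10-/- libraries. The Il10-/- Tnfr1-/- library 6 was below 3 Il10-/- libraries, and the log2 difference was 1.85 ± 0.81 (SE). Synm encodes synemin, which joins desmin filaments to other structures. It averaged 17.8 ± 13.4 in Il10-/- Tnfr1-/- and 6.76 ± 7.11 in Il10-/- colons (SD, n = 6 and 5).

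Genes for dense bodies and membrane plaques include the list's 2 exceptions. Flna, the actin cross-linker filamin A, averaged 308 ± 262 in Il10-/- Tnfr1-/- and 121 ± 107 in Il10-/- colons. Synpo2, which encodes the actin-bundling synaptopodin 2, had 21.7, 7.37, 49.1, 62.9, 16.9 and 8.06 in Il10-/- Tnfr1-/- libraries, against 6.73, 7.48, 19.8, 1.98 and 2.62 in Il10-/- libraries. Pgm5, a phosphoglucomutase relative found at adherens junctions, averaged 19.5 ± 18.4 in Il10-/- Tnfr1-/- and 5.54 ± 5.10 in Il10-/- colons. These 3 kept the common order of libraries, with log2 differences of 1.42 ± 0.76, 1.75 ± 0.65 and 1.71 ± 0.76 (SE) in that order. Csrp1, a LIM protein of actin bundles, averaged 257 ± 195 in Il10-/- Tnfr1-/- and 106 ± 109 in Il10-/- colons. Pdlim3, a PDZ and LIM protein that binds actinin, averaged 77.95 ± 61.1 in Il10-/- Tnfr1-/- and 33.7 ± 34.4 in Il10-/- colons. Pdlim7, another PDZ and LIM protein, averaged 42.2 ± 30.9 in Il10-/- Tnfr1-/- and 29.7 ± 22.1 in Il10-/- colons, and its lowest value was in Il10-/- Tnfr1-/- library 6.

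Ldb3, known for its PDZ and LIM domain protein at the Z-disc of striated muscle, behaved otherwise. It had 6.54, 6.43, 4.91, 3.87, 5.08 and 1.61 in Il10-/- Tnfr1-/- libraries, against 1.52, 5.65, 5.07, 4.29 and 3.66 in Il10-/- libraries, and its highest value was only 4.31-fold above its lowest. Itga7 encodes the laminin-binding integrin alpha 7. It had 29.4, 40.9, 24.7, 31.01, 41.9 and 26.4 in Il10-/- Tnfr1-/- libraries, against 7.67, 30.1, 67.8, 40.3 and 55.4 in Il10-/- libraries. For both genes the highest and the lowest libraries were not those of most other members. The log2 differences were 0.20 ± 0.36 for Ldb3 and -0.03 ± 0.45 for Itga7 (SE). Itga7 was the only tested member with a lower mean in Il10-/- Tnfr1-/- colons, and its sign differed with equal library totals (0.11) and with quantile normalization (0.00062).

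The small heat shock proteins of the list, Hspb6 and Hspb8, are abundant in muscle, and Hspb6 is a target of relaxing kinases. Hspb6 averaged 23.3 ± 17.2 in Il10-/- Tnfr1-/- and 10.2 ± 11.1 in Il10-/- colons. Hspb8 averaged 16.4 ± 10.9 in Il10-/- Tnfr1-/- and 8.03 ± 11.04 in Il10-/- colons (SD, n = 6 and 5). In Il10-/- library 3 they stood at 29.3 and 27.3, above 4 and 5 of the 6 Il10-/- Tnfr1-/- libraries.

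Myosin phosphatase is represented by Ppp1r12b, a targeting subunit, and Ppp1r14a, its inhibitor CPI-17. Ppp1r12b averaged 23.04 ± 19.998 in Il10-/- Tnfr1-/- and 7.47 ± 5.48 in Il10-/- colons, and spanned 23.5-fold over the 11 libraries. Ppp1r14a averaged 19.6 ± 12.7 in Il10-/- Tnfr1-/- and 13.7 ± 10.6 in Il10-/- colons, and spanned only 5.18-fold. Their log2 differences were 1.34 ± 0.64 and 0.49 ± 0.47 (SE).

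The genes of excitation and calcium handling were low on this scale. Cacna1c, the pore of the L-type calcium channel, ranged over 0.571 to 4.50 in Il10-/- Tnfr1-/- and 0.482 to 3.42 in Il10-/- colons. Kcnmb1, the smooth muscle beta subunit of the large-conductance potassium channel, ranged over 0.410 to 4.16 in Il10-/- Tnfr1-/- and 0.227 to 1.80 in Il10-/- colons. Jph2 encodes junctophilin 2, which holds the calcium store near the membrane, and ranged over 3.02 to 27.8 in Il10-/- Tnfr1-/- and 1.34 to 12.3 in Il10-/- colons. All 3 overlapped between the genotypes. Chrm2 and Chrm3 encode the muscarinic receptors through which acetylcholine acts on gut muscle. Chrm2 ranged over 0.364 to 6.29 in Il10-/- Tnfr1-/- and 0.0385 to 2.14 in Il10-/- colons, the widest span of any member at 164-fold. Chrm3, which also acts in epithelium, ranged over 0.342 to 1.25 in Il10-/- Tnfr1-/- and 0.189 to 0.727 in Il10-/- colons. Both are near the lower limit of the table, and fold differences of genes this low rest on few reads. Dmpk, a kinase of muscle membranes, averaged 65.8 ± 35.7 in Il10-/- Tnfr1-/- and 40.7 ± 41.7 in Il10-/- colons (SD, n = 6 and 5).

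Myocd encodes myocardin, the muscle-restricted coactivator of serum response factor. Its abundance was 0.602, 0.215, 3.38, 4.26, 0.360 and 0.185 in Il10-/- Tnfr1-/- libraries, against 0.347, 0.374, 0.250, 0.0820 and 0.114 in Il10-/- libraries. Only Il10-/- Tnfr1-/- libraries 3 and 4 exceeded 1, and Il10-/- library 3, high for most of the list, was at 0.250. The gene failed the filter, so no test is given. Levels can be compared between genes because the values are divided by length: 11 members averaged over 100 across the 11 libraries and 8 averaged under 10.

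No member differed between the genotypes at an adjusted p under 0.05 in limma with Benjamini-Hochberg adjustment, and neither did any other gene: 0.0% of the 13293 genes were called, with adjusted p of 0.535 to 0.977 for the 31 tested members. At an unadjusted p under 0.05, 15 of the 31 members (48.4%) had a higher mean in Il10-/- Tnfr1-/- and 0 had a lower one, where 4.81% of all genes were higher and 8.4% passed in either direction. The mean log2 value was higher in Il10-/- Tnfr1-/- colons for 30 of the 31 members, against 55.2% of all genes tested. The median log2 difference was 1.46 over the members and 0.05 over all genes. No member separated the genotypes without overlap, as 0.587% of all genes did. The members move together, so these counts are not independent of each other. Tnfrsf1a, whose loss sets the genotypes apart, was not called either. Its log2 difference was -1.60 ± 0.22 (SE), with no overlap between the genotypes. The fit thus missed a difference given by the labels, and the lack of calls does not show that the members are alike.

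The count at an unadjusted p under 0.05 rested on single libraries, while the signs of the differences mostly did not. With 1 library left out, only Itga7 and Ldb3 changed sign. The 15 members at an unadjusted p under 0.05 became 4 without Il10-/- Tnfr1-/- library 1, 2 without library 3 and 2 without library 4 of the same genotype. They became 9 without Il10-/- library 2, 25 without library 3, 1 without library 5 and 1 without library 6 of that genotype. Without the 2 libraries whose names start with 2, the count was 0 and the median difference 0.80, and without the 2 whose names start with 4 it was 0 and 0.63. Without both, 4 Il10-/- Tnfr1-/- and 3 Il10-/- libraries were left: 14 members had a higher and 17 a lower mean, the median difference was -0.03 and the range -0.68 to 0.47. Among names starting with 1 alone, 20 of 31 had a higher mean in Il10-/- Tnfr1-/- colons, with a median of 0.06. The part of the name groups in the difference between genotypes cannot be told apart from the genotype in these libraries.

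**Figure D3:**
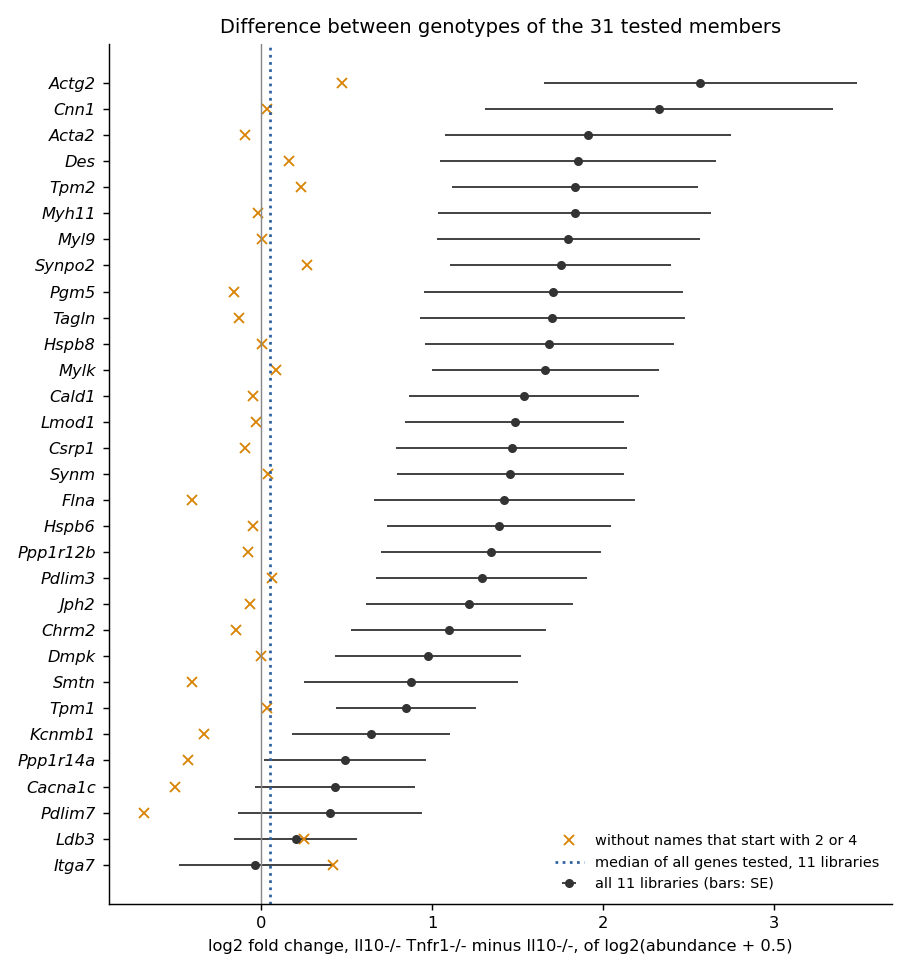
Log2 difference, Il10-/- Tnfr1-/- minus Il10-/-, of each of the 31 tested members. Points with bars give the estimate and SE over 11 libraries, crosses the estimate without the libraries whose names start with 2 or 4, and the dotted line the median of all genes tested (0.05). The points run from -0.03 (Itga7) to 2.57 (Actg2), and the crosses from -0.68 to 0.47.

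The members also differed widely between libraries of 1 genotype. The SD of the log2 value had a median over members of 1.18 within Il10-/- Tnfr1-/- colons and 1.31 within Il10-/- colons, where all genes tested had medians of 0.350 and 0.441. Over all 11 libraries the median SD was 1.42 for the members and 0.428 for all genes, and 25 of the 31 members were above the 90th percentile of all genes. Averaged over the members, the log2 level centred on each gene's mean was 0.75, -0.62, 1.77, 1.91, 0.40 and -0.60 in the Il10-/- Tnfr1-/- libraries. It was -0.54, -0.44, 1.09, -1.88 and -1.84 in the Il10-/- libraries. Libraries 2 and 6 of the Il10-/- Tnfr1-/- mice thus lay with libraries 1 and 2 of the Il10-/- mice.

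The members varied together. Over their 465 pairs the median Pearson r across 11 libraries was 0.943, with 344 pairs (74.0%) over 0.9, and the median over pairs of all genes tested was 0.028. Set against Actg2, chosen as the most gut-muscle-specific actin, 28 of the other 30 tested members had an adjusted p under 0.05 by Pearson's r and as many by Spearman's rho. P-values came from 100000 permutations, whose smallest p is 1e-05, with adjustment over 30 relations. The permutations treat the 11 libraries as independent. Libraries whose names start with 2, or with 4, lay close together in member level, while those with 1 or 3 did not. The median r was 0.955, and 25 members exceeded 0.9. Cnn1 (r = 0.991, rho = 0.964), Tpm2 (r = 0.989, rho = 0.927) and Myh11 (r = 0.988, rho = 0.927) were the closest, each with a permutation p of at most 2e-05 and an adjusted p of at most 5e-05. Ldb3 (r = 0.280, permutation p = 0.407) and Itga7 (r = -0.0514, permutation p = 0.888) did not pass. Median r with Actg2 over all genes tested was 0.137.

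The relations were repeated with fewer libraries. Without the 2 farthest from the median of Actg2, which were Il10-/- Tnfr1-/- library 3 and Il10-/- library 5, 28 of 30 relations still passed in a permutation test, with a median r of 0.940. Within the 6 Il10-/- Tnfr1-/- libraries the median r was 0.967 and 28 passed an exact permutation test over 720 pairings. Without names starting with 2 or 4, which removes the 2 highest and the 2 lowest libraries for Actg2, 23 of the 30 relations passed an exact permutation test over 5040 pairings of 7 libraries, with a median r of 0.899. Those of Pdlim7, Cacna1c, Kcnmb1, Chrm2 and Pgm5 no longer passed there (r = 0.721 to 0.779, adjusted permutation p = 0.0682 to 0.0803), and those of Ldb3 (r = 0.557) and Itga7 (r = 0.636) again did not. No correlation was computed over the 5 Il10-/- libraries or the 5 with names starting with 1, since 6 libraries were set as the least for one. The libraries share a protocol and differ in total and in transcripts at 0, and with equal totals per library 28 relations again passed.

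**Figure D4:**
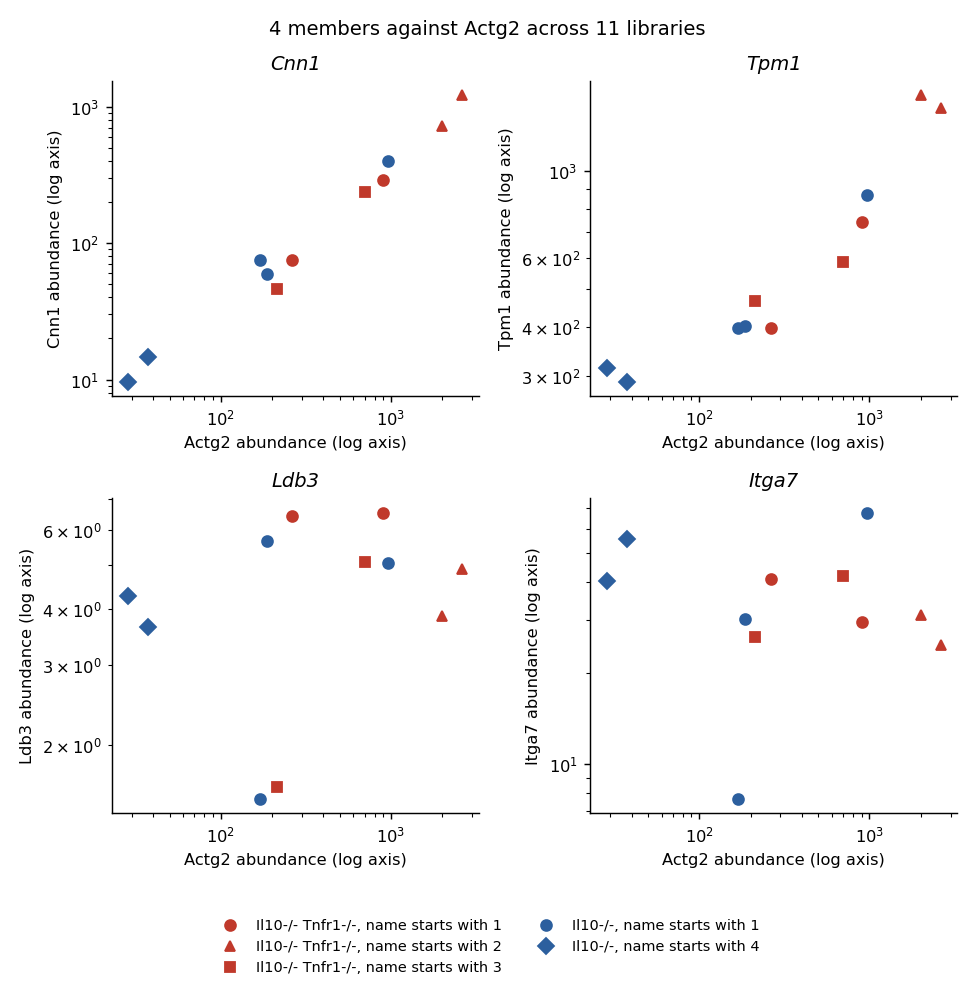
Abundance of Cnn1, Tpm1, Ldb3 and Itga7 (vertical log axes) against that of Actg2 (horizontal log axes) in the 11 libraries, with symbols for genotype and first digit of the name. Cnn1 (r = 0.991) and Tpm1 (r = 0.933) climb with Actg2 in both genotypes, while Ldb3 (r = 0.280) and Itga7 (r = -0.0514) scatter.

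Because the members share 1 axis of variation, ratios between members within a library were compared as well. Of 10 ratios, 1 differed between genotypes after adjustment: desmin was lower relative to enteric actin in every Il10-/- Tnfr1-/- library than in any Il10-/- library. The log2 ratio of Des to Actg2 was -2.34 ± 0.21 in Il10-/- Tnfr1-/- and -1.63 ± 0.46 in Il10-/- colons (SD, n = 6 and 5), a difference of -0.71. The exact two-sided permutation test over 462 assignments gave p = 0.00216, adjusted 0.0216. The Il10-/- Tnfr1-/- values were -2.32, -2.05, -2.47, -2.58, -2.16 and -2.49, against -1.98, -1.94, -1.91, -1.39 and -0.93 in Il10-/- libraries, so the genotypes did not overlap.

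The ratio was low in the libraries with the most Actg2 and high in those with the least: it was -2.47 and -2.58 in Il10-/- Tnfr1-/- libraries 3 and 4, against -1.39 and -0.93 in Il10-/- libraries 5 and 6. Between libraries of closer Actg2 level it was -2.32 in Il10-/- Tnfr1-/- library 1 (Actg2 at 903), against -1.91 in Il10-/- library 3 (Actg2 at 964). It was -2.05 and -2.49 in Il10-/- Tnfr1-/- libraries 2 and 6 (Actg2 at 263 and 213). In Il10-/- libraries 1 and 2 it was -1.98 and -1.94 (Actg2 at 169.96 and 186). Il10-/- Tnfr1-/- library 6 thus had a low ratio with the least Actg2 of its genotype. The part of the level of muscle genes in this ratio was not tested. Among names starting with 1 alone, the difference was -0.24 with no overlap, and 3 libraries against 2 cannot give an exact p below 0.1. Without names starting with 2 or 4 it was -0.31, again with no overlap (exact permutation p = 0.0571). The call was lost when any 1 Il10-/- Tnfr1-/- library was left out and when Il10-/- library 6 was left out (adjusted p from exact permutation 0.0529 to 0.0952), with differences of -0.54 to -0.77. In the 6 cases without an Il10-/- Tnfr1-/- library the exact p was 0.00794, the smallest that 5 libraries against 5 allow. Without Il10-/- library 3, 5 of the 10 ratios passed.

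Of the other ratios, that of Actg2 to Myh11 was 2.46 ± 0.33 in Il10-/- Tnfr1-/- and 1.72 ± 0.33 in Il10-/- colons (log2, SD, exact permutation p = 0.0108, adjusted 0.0541). The ratio of Actg2 to Acta2 was 0.58 ± 0.32 in Il10-/- Tnfr1-/- and -0.08 ± 0.51 in Il10-/- colons (exact permutation p = 0.0390, adjusted 0.0823). The CPI-17 gene Ppp1r14a relative to Ppp1r12b was 0.02 ± 0.46 in Il10-/- Tnfr1-/- and 0.88 ± 0.50 in Il10-/- colons (exact permutation p = 0.0195, adjusted 0.0649). Tpm2 relative to Tpm1 was -0.21 ± 0.42 in Il10-/- Tnfr1-/- and -1.20 ± 0.98 in Il10-/- colons (exact permutation p = 0.0411, adjusted 0.0823). The last contrast sets a muscle-enriched tropomyosin against a gene that is also made outside muscle, and the 2 lowest values, -2.49 and -1.85, were those of Il10-/- libraries 5 and 6. Tagln to Acta2, Synm to Des, Myocd to Actg2, Chrm3 to Chrm2 and Hspb8 to Hspb6 had adjusted exact permutation p of 0.141 to 0.327.

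**Figure D5:**
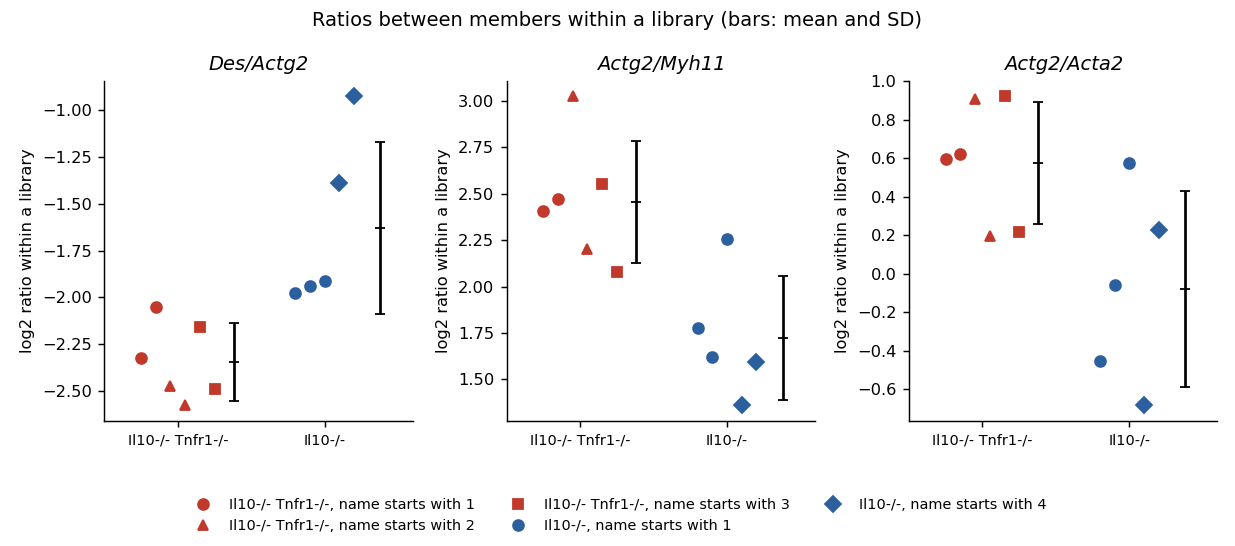
Log2 ratios of Des to Actg2, Actg2 to Myh11 and Actg2 to Acta2 in each library, Il10-/- Tnfr1-/- left of Il10-/-, with mean and SD bars; symbols mark the first digit of the name. For Des to Actg2 all 6 Il10-/- Tnfr1-/- values, -2.58 to -2.05, lie below all 5 Il10-/- values, -1.98 to -0.93.

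Many members make several transcripts, and their estimated shares were examined next. For 21 members at least 2 transcripts each carried 10% or more of the gene's abundance, and for 12 a single transcript did. Reads of 75 bases are assigned to transcripts as estimates, so shares of overlapping transcripts are uncertain. Of 92 member transcripts tested, 0 had an adjusted p under 0.05 in limma with Benjamini-Hochberg adjustment (smallest 0.635), as with all 26074 transcripts (0.0%). At an unadjusted p under 0.05, 30 had a higher and 1 a lower mean in Il10-/- Tnfr1-/- colons, where 3.53% of all transcripts had a higher one. In the authors' deposited table, 112 member transcripts have a q-value, from 0.684 to 1.

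Tpm1 makes muscle and non-muscle forms by alternative splicing. Tpm1-215 carried 35.3% ± 24.04 in Il10-/- Tnfr1-/- colons, against 10.7% ± 9.11 in Il10-/- colons (SD), and its level had r = 0.977 with Actg2 over the 11 libraries. Tpm1-220, annotated as a target of nonsense-mediated decay, carried 15.8% ± 11.1 in Il10-/- Tnfr1-/- colons, against 28.9% ± 12.1 in Il10-/- colons, with r = -0.415. Tpm1-211 carried 19.1% ± 10.1 in Il10-/- Tnfr1-/- colons, against 22.1% ± 9.62 in Il10-/- colons, with r = 0.628. These 3 correlations are descriptions of transcripts of 1 gene that compete for the same reads. Tpm1-220 was at 0.125 in Il10-/- Tnfr1-/- library 3, which had the most Actg2, and at 55.3 or more in every other library. The part of this single low estimate in its negative r was not tested. Over all 11 libraries the estimated transcripts thus differed in r with Actg2, with that limit for Tpm1-220.

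For Jph2, the transcript Jph2-201 carried 43.5% ± 18.3 in Il10-/- Tnfr1-/- colons, against 6.06% ± 8.46 in Il10-/- colons (SD, n = 6 and 5). Its abundance was 3.39, 1.58, 17.05, 9.96, 2.24 and 1.19 in Il10-/- Tnfr1-/- libraries, against 0.467 and 0.705 in Il10-/- libraries 1 and 2 and near 0 in the other 3. The genotypes did not overlap, with an unadjusted limma p of 0.000951 and an adjusted p of 0.635 (Benjamini-Hochberg). The other transcript, Jph2-202, averaged 6.42 ± 5.85 in Il10-/- Tnfr1-/- and 4.48 ± 4.43 in Il10-/- colons. How reads were split between these similar transcripts is uncertain.

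Smoothelin showed a long and a short form. Smtn-203, of 3117 bases and 20 exons, carried 39.3% ± 7.18 in Il10-/- Tnfr1-/- colons, against 18.8% ± 11.8 in Il10-/- colons. Smtn-201, of 1747 bases and 9 exons, carried 38.9% ± 15.4 in Il10-/- Tnfr1-/- colons, against 54.5% ± 28.5 in Il10-/- colons. The long form had r = 0.975 with Actg2 and the short form r = 0.601. In Cnn1, Cnn1-201 carried 58.1% ± 25.95 in Il10-/- Tnfr1-/- colons, against 83.05% ± 27.4 in Il10-/- colons. Cnn1-204, a form without an annotated coding sequence, carried 22.9% ± 15.6 in Il10-/- Tnfr1-/- colons, against 8.59% ± 15.7 in Il10-/- colons. Cnn1-203 carried 15.6% ± 6.92 in Il10-/- Tnfr1-/- colons, against 7.87% ± 10.98 in Il10-/- colons. In Hspb6, the coding Hspb6-201 carried 63.7% ± 15.3 in Il10-/- Tnfr1-/- colons, against 33.1% ± 21.3 in Il10-/- colons, and Hspb6-202, with no annotated coding sequence, 34.1% ± 16.1 in Il10-/- Tnfr1-/- colons, against 60.7% ± 23.4 in Il10-/- colons. The spread between libraries of 1 genotype was wide for all of these shares.

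Actg2 showed no such split. Actg2-202 carried 73.5% ± 3.44 in Il10-/- Tnfr1-/- colons, against 70.02% ± 4.30 in Il10-/- colons, and Actg2-201 22.3% ± 1.41 in Il10-/- Tnfr1-/- colons, against 27.5% ± 5.58 in Il10-/- colons. Likewise Myh11-201 carried 96.99% ± 1.04 in Il10-/- Tnfr1-/- colons, against 97.96% ± 0.971 in Il10-/- colons, Tpm2-203 97.4% ± 0.878 in Il10-/- Tnfr1-/- colons, against 92.5% ± 3.70 in Il10-/- colons, and Lmod1 and Kcnmb1 had 1 transcript each. Pdlim7-201 carried 55.2% ± 6.07 in Il10-/- Tnfr1-/- colons, against 54.2% ± 9.98 in Il10-/- colons. Among others with several forms, Cald1-205 carried 30.3% ± 10.03 in Il10-/- Tnfr1-/- colons, against 24.6% ± 7.93 in Il10-/- colons, and Cald1-203 32.4% ± 24.3 in Il10-/- Tnfr1-/- colons, against 39.7% ± 35.2 in Il10-/- colons. Csrp1-202 carried 24.1% ± 6.03 in Il10-/- Tnfr1-/- colons, against 17.4% ± 23.5 in Il10-/- colons, with its highest share of 55.5% in Il10-/- library 1. In Dmpk the transcript with the highest mean was Dmpk-205, without an annotated coding sequence, at 27.98% ± 18.95 in Il10-/- Tnfr1-/- colons, against 38.05% ± 13.1 in Il10-/- colons, so the summed Dmpk value does not stand for its coding form. Dmpk-202, a coding form, had r = 0.968 with Actg2 against -0.0392 for Dmpk-205. Dmpk-205 was at 0 in Il10-/- Tnfr1-/- library 3, which had the most Actg2, and at 2.72 to 57.6 in the other libraries. The part of this single value in its r was not tested.

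Other genes of the contractile pathway had smaller median differences between the genotypes than the members. No gene of these lists passed the adjusted threshold in limma, as none did in the table. Of 11 regulators of serum response factor and the myocardin family, 9 had a higher and 2 a lower mean in Il10-/- Tnfr1-/- colons, with a median log2 difference of 0.09. Fhl1, a LIM-only coactivator, had 183 ± 131 in Il10-/- Tnfr1-/- and 149.7 ± 66.9 in Il10-/- colons, and Klf4, a repressor of muscle genes, 188 ± 90.6 in Il10-/- Tnfr1-/- and 166 ± 60.8 in Il10-/- colons (SD, n = 6 and 5). Among 12 tested partners of the thick and thin filaments, 9 were higher and 3 lower, with a median of 0.41. Myl6, the essential light chain made in most cells, had 2397 ± 434 in Il10-/- Tnfr1-/- and 2701 ± 1236 in Il10-/- colons, and Actn4, non-muscle actinin, 227 ± 86.7 in Il10-/- Tnfr1-/- and 279 ± 82.9 in Il10-/- colons. Their r with Actg2 was -0.0751 and -0.353, and they do not stand for the whole list. Over the other tested partners r ran from -0.411 for Ablim1 to 0.940 for Svil, with Tagln2 at 0.131 and Cnn3 at 0.875.

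The calcium-sensitising RhoA pathway had 11 of 14 genes higher and 3 lower, with a median of 0.23, and Rhoa itself had 153 ± 27.2 in Il10-/- Tnfr1-/- and 149.8 ± 44.6 in Il10-/- colons. Ppp1cb, the catalytic subunit of myosin phosphatase, had 191 ± 36.9 in Il10-/- Tnfr1-/- and 135 ± 63.5 in Il10-/- colons. Of 9 tested genes of calcium entry and stores, 7 were higher and 2 lower, with a median of 0.32. Atp2a2, the calcium pump of the store, had 51.6 ± 15.8 in Il10-/- Tnfr1-/- and 42.7 ± 26.4 in Il10-/- colons, and Stim1, the store's calcium sensor, 26.4 ± 12.8 in Il10-/- Tnfr1-/- and 26.02 ± 10.4 in Il10-/- colons. All 9 tested genes of the cGMP and cAMP relaxation pathway were higher, with a median of 0.66, although only Pde3a had an unadjusted p under 0.05. Pde5a, which breaks down cGMP, had 24.3 ± 2.98 in Il10-/- Tnfr1-/- and 22.1 ± 7.42 in Il10-/- colons, and Pde3a, which breaks down cAMP, 8.45 ± 2.99 in Il10-/- Tnfr1-/- and 5.36 ± 1.19 in Il10-/- colons.

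Of 8 tested receptors of gut muscle, 7 were higher and 1 lower, with a median of 0.49. Ednrb, the type B endothelin receptor, which nerve and muscle share, had 6.62 ± 3.39 in Il10-/- Tnfr1-/- and 2.78 ± 1.66 in Il10-/- colons, and Ednra, the type A receptor, 3.59 ± 2.36 in Il10-/- Tnfr1-/- and 2.49 ± 1.10 in Il10-/- colons. All 15 tested genes of the dense plaque and the dystrophin complex were higher, with a median of 0.86 against 0.05 over all genes. Itgb1, the beta 1 integrin, had 144 ± 43.6 in Il10-/- Tnfr1-/- and 94.2 ± 15.3 in Il10-/- colons, and Ilk, the kinase it binds, 70.2 ± 36.8 in Il10-/- Tnfr1-/- and 47.96 ± 18.5 in Il10-/- colons.

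Markers of other cells of the colon wall moved along the same axis. Of 13 lists of cell type markers, 12 had tested genes, and the mean log2 level of 8 was related to Actg2 across the 11 libraries at an adjusted permutation p under 0.05. Enteric glia (r = 0.921, rho = 0.927, adjusted permutation p = 0.00088), pericytes and vascular muscle (r = 0.913, rho = 0.945, adjusted permutation p = 0.00088) and cells positive for PDGFRA (r = 0.898, rho = 0.891, adjusted permutation p = 0.00088) were the closest. Enteric neurons had r = 0.896 and rho = 0.927, fibroblasts r = 0.816 and rho = 0.745, skeletal muscle r = 0.776 and rho = 0.8, endothelium r = 0.751 and rho = 0.709, and interstitial cells of Cajal r = 0.672 and rho = 0.673. Their adjusted permutation p lay between 0.00102 and 0.0348. By Spearman's rho 9 lists passed, and with equal totals per library 9 passed by r. Without the 2 libraries farthest from the median of Actg2, 5 of these relations passed. Without names starting with 2 or 4, 4 passed an exact permutation test, those of enteric glia, skeletal muscle, pericytes and vascular muscle, and enteric neurons. Within the 6 Il10-/- Tnfr1-/- libraries 0 passed an exact permutation test, where the smallest adjusted p was 0.0708 and r for the 8 lists was 0.813 to 0.906.

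In contrast, the epithelial lists had r below 0 over the 11 libraries. Absorptive epithelium had r = -0.475 and rho = -0.682, with an adjusted permutation p of 0.152 for r and 0.0368 for rho, so that only the rank relation passed. Goblet cells had r = -0.592 and rho = -0.355, with an adjusted permutation p of 0.0744 for r and 0.311 for rho. Macrophages had r = 0.564 and rho = 0.455, with an adjusted permutation p of 0.0815 for r and 0.196 for rho. With equal totals per library macrophages had r = 0.705 and passed (adjusted permutation p = 0.0179), while absorptive epithelium had r = -0.282 and goblet cells r = -0.371. Without names starting with 2 or 4 the sign was reversed for goblet cells (r = 0.431) and macrophages (r = -0.300). Absorptive epithelium had r = -0.357 there, and none of these lists passed. Summed over the list, the pericyte and vascular muscle markers had 37.5 to 267 in Il10-/- Tnfr1-/- and 17.4 to 86.9 in Il10-/- colons. Rgs5 among them had 53.9 ± 55.6 in Il10-/- Tnfr1-/- and 14.5 ± 10.9 in Il10-/- colons. The enteric neuron markers summed to 73.9 to 386 in Il10-/- Tnfr1-/- and 24.7 to 836 in Il10-/- colons, the highest being Il10-/- library 3. Although the mean log2 level of the enteric glia list followed Actg2, its sum did not. The glia markers summed to 55.3 to 67.8 in Il10-/- Tnfr1-/- and 49.1 to 78.8 in Il10-/- colons. The glia sum was 60.7 in Il10-/- Tnfr1-/- library 3, with the most Actg2, and 60.2 in Il10-/- library 5, with the least. The interstitial cell of Cajal markers summed to 21.4 to 124 in Il10-/- Tnfr1-/- and 26.4 to 142 in Il10-/- colons. The fibroblast markers summed to 209 to 1787 in Il10-/- Tnfr1-/- and 61.0 to 429 in Il10-/- colons. The part of the share of muscle wall in each extract in the members' differences was not tested.

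Striated muscle expresses many of these genes too, and its markers differed in level. Of 10 skeletal muscle markers, Myh4 was listed at 0 in every library, and Myh1, Myh2, Actn3 and Ryr1 never exceeded 1. The list summed to 17.4 to 97.1 in Il10-/- Tnfr1-/- and 13.02 to 56.8 in Il10-/- colons, mostly Ckm, muscle creatine kinase, with 28.1 ± 25.6 in Il10-/- Tnfr1-/- and 9.67 ± 14.5 in Il10-/- colons. Ckm had r = 0.961 with Actg2, and Tnni2, fast skeletal troponin I, had r = -0.292. Others in the list reached the level of low members such as Lmod1: the highest value was 13.6 for Tnnt3, fast skeletal troponin T, and 11.8 for Acta1, skeletal actin, both in Il10-/- Tnfr1-/- libraries, and 16.998 for Tnni2 in an Il10-/- library. The cardiac list summed to 11.8 to 31.4 in Il10-/- Tnfr1-/- and 14.0 to 33.8 in Il10-/- colons. Myh6 never exceeded 1, while the highest values were 13.6 for Tnnt2 and 9.73 for Actc1 in Il10-/- Tnfr1-/- library 3 and 18.3 for Myl7 in Il10-/- library 6. The part of striated muscle in the members' levels was not tested. Mesothelial markers summed to at most 5.75 in Il10-/- Tnfr1-/- and 1.65 in Il10-/- colons. The defining smooth muscle genes Actg2, Myh11, Des and Cnn1 were present in every library, at 9.64 or more.

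Outside the list, the genes whose pattern was most like the mean of the members over 11 libraries were Sntg2 (r = 0.994), Chst12 (r = 0.993), Hspb1 (r = 0.992), Stum, Popdc2, Adcy5, Tns1, Sdc3, Mrgprf and Tmem200b (r = 0.986 to 0.991). Hspb1, another small heat shock protein, averaged 39.8 ± 32.4 in Il10-/- Tnfr1-/- and 14.7 ± 18.3 in Il10-/- colons. Tns1, tensin 1 of focal adhesions, averaged 14.1 ± 11.1 in Il10-/- Tnfr1-/- and 6.28 ± 5.65 in Il10-/- colons (SD, n = 6 and 5). Of 13262 genes outside the list, 452 had r over 0.9 and 136 over 0.95, so the axis reached well beyond the members. The most opposite genes were Tex12 (r = -0.928), Slc37a1 (r = -0.896) and Cdx1 (r = -0.879), the last a transcription factor of intestinal epithelium. Cdx1 averaged 155 ± 25.98 in Il10-/- Tnfr1-/- and 189 ± 44.99 in Il10-/- colons. These values describe likeness of pattern over 11 libraries and carry no test.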

How the data were processed

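Per the labels' protocols, total RNA of Trizol-homogenised colons was purified on columns, and a stranded mRNA kit gave libraries for single-end sequencing of 75 bases. CASAVA, kallisto, sleuth and the build mm10 are named in the submitters' processing notes; versions and settings are not stated there. The deposited table gives, per transcript and library, an abundance signal that the authors scaled. It is not a count: against the authors' mean natural log count it was divided by length (slope 1.07 on log length, 16271 transcripts), and the depth of each library is unknown. The authors' q-values are quoted only as theirs, from the deposited table.

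Of 12 samples, 11 have a column that matches their title. The other column, 1 in all, matched no title and was not used, and Il10-/- replicate 4 was not analysed here. Replicate numbers follow sample order and pair nothing. After 866 repeated rows were dropped, 113193 transcripts were summed to 35688 genes. As the values are not counts, limma 3.58.1 (R 4.3.3, trend and robust moderation) was run on log2(value + 0.5) for features over 1 in at least 6 libraries, across the whole table. Its two-sided p-values were adjusted by Benjamini-Hochberg and called under 0.05. Log2 differences (Il10-/- Tnfr1-/- minus Il10-/-) come out too small for low genes because of the pseudocount. Ratios were compared by exact permutation and relations by permutation in SciPy 1.17.1. The fit was tested on simulated data with known changes. There each gene's SD was capped at the median over genes (0.428 on the log2 scale) and genes varied independently. The members had a median SD of 1.42 and varied together, so the simulation does not cover their case. Positions come from GENCODE release M21 (96.6% of transcripts matched). Cacna1c, Hspb6, Itga7, Kcnmb1, Ppp1r12b, Synm and Tagln overlap other protein-coding genes, and the sources used here do not say whether the assignment used strand. Alternatives covered pseudocounts, filters, scalings, moderation, leading transcripts, left-out replicates and the first digit of the name; leaving out name groups was chosen after seeing the data. The members and lists were chosen with earlier results of these data known. All members are named; of each other list the 2 genes of highest mean are named, and a few others were named after their values were seen. P-values set a difference or a relation against the spread between these mice, which includes any spread between name groups.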

Additional observations from a re-analysis of the deposited data

Results flagged for a closer look

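In the Il10-/- colons, replicate 3 stood apart from the 4 others for 15 members on the abundance scale. Gaps on the log2 scale, used for the other comparisons, were not tested. For each, its gap to the next value, divided by the range of the 5 values, was above Dixon's 95% critical value of 0.71 (0.625 for the 6 Il10-/- Tnfr1-/- libraries). The actin and myosin genes stood at 963.9 for Actg2, 201.2 for Myh11 and 723.5 for Myl9. Thin-filament genes were at 402.2 for Cnn1, 804.7 for Tagln, 870.3 for Tpm1 and 877.9 for Tpm2. Des was at 255.4, and the anchoring and LIM domain genes Csrp1 and Pdlim3 at 292.3 and 93.6. The heat shock protein genes Hspb6 and Hspb8 were at 29.3 and 27.3. The remaining genes were Ppp1r14a at 32.4, Jph2 at 12.3 and Dmpk at 112.5. No member stood apart in this way in the 6 Il10-/- Tnfr1-/- libraries. Over 66 groups chance flags about 1 in 20 if the values are normally distributed, which was not checked for these abundances. The 15 members vary together, so they are close to 1 observation. The summed markers of enteric neurons were also highest in this library, at 836 against at most 386 in Il10-/- Tnfr1-/- colons.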

How the results depend on the processing

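The count of members called, 0, was the same under every alternative. Counts of genes called were 0 but for 1 under quantile normalization and 0 to 2 when 1 replicate was left out; transcripts called were 0 to 1 when 1 replicate was left out. Other pseudocounts, filters, scalings, moderation or leading transcripts left the median member difference at 1.35 to 1.66. With the name's first digit as covariate and among names starting with 1 alone, the median was 0.061 and 0 members had an unadjusted p under 0.05. That number was also 0 without names starting with 2, with 4 or with either, and 1 to 25 when 1 replicate was left out. Without 2 and 4 the median was -0.031 and 14 members had a higher mean. The ratios called numbered 0 to 5 when 1 replicate was left out and 0 without names starting with 2 or 4. Among names starting with 1 none could be called, since 3 libraries against 2 cannot give an exact p below 0.1. Of the 28 members related to Actg2, 23 passed without names starting with 2 or 4. Of the marker lists, 9 were related to Actg2 with equal totals, macrophages included, 5 without the 2 farthest libraries, 4 without names starting with 2 or 4 and 0 within Il10-/- Tnfr1-/- libraries.

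No member was called, so a change of sign below is of a difference that passed no test. With the digit as a covariate, and equally among names starting with 1, the log2 difference was -0.11 for Jph2, -0.20 for Kcnmb1, -0.39 for Smtn, -0.52 for Pdlim7, 0.45 for Itga7, -0.21 for Synm, -0.28 for Flna, -0.16 for Tagln, -0.37 for Ppp1r14a, -0.12 for Pgm5, -0.31 for Chrm2 and -0.51 for Cacna1c. Without names starting with 2 or 4 it was -0.064 for Jph2, -0.018 for Myh11, -0.33 for Kcnmb1, -0.40 for Smtn, -0.68 for Pdlim7, 0.42 for Itga7, -0.096 for Csrp1, -0.049 for Cald1, -0.40 for Flna, -0.13 for Tagln, -0.094 for Acta2, -0.048 for Hspb6, -0.43 for Ppp1r14a, -0.16 for Pgm5, -0.15 for Chrm2, -0.031 for Lmod1, -0.51 for Cacna1c and -0.078 for Ppp1r12b. Without 2 alone it was -0.23 for Pdlim7, 0.064 for Itga7, -0.044 for Ppp1r14a and -0.041 for Cacna1c, and without 4 alone -0.049 for Pdlim7, 0.32 for Itga7 and -0.032 for Cacna1c. Itga7 had 0.11 with equal totals and 0.00062 with quantile normalization. With 1 replicate left out, Itga7 ranged from -0.54 to 0.23 and Ldb3 from -0.066 to 0.45. The leading transcript of Dmpk gave -0.27. The Chrm3 to Chrm2 ratio differed by 0.38 among names starting with 1 and 0.21 without 2 and 4, and Hspb8 to Hspb6 by -0.051 among names starting with 1. Beyond the libraries each setting leaves out, the cause was not tested. No paired analysis was possible because replicate numbers follow sample order. With depth unknown, the counting error of the low genes Myocd, Chrm2, Chrm3, Cacna1c and Kcnmb1 could not be estimated here.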
